A study of Homo sapiens with 5 samples.

Results

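PHF8 is a histone demethylase that carries a plant homeodomain finger, which docks on trimethylated H3K4 (H3K4me3), and a Jumonji domain, which removes methyl groups from repressed chromatin. The H3K4me3 mark sits mainly at active promoters and at unmethylated CpG islands, and weaker H3K4 methylation also marks enhancers inside introns. Peaks of PHF8 that lie within a gene but away from any annotated promoter are therefore a place to ask which sequence surrounds the protein when no start site is near. Such regions were examined here in the human melanoma cell line SKMEL-147 by chromatin immunoprecipitation sequencing (ChIP-seq).

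The series held 5 samples of SKMEL-147 chromatin, for which the labels name no treatment, 3 immunoprecipitated with an anti-PHF8 antibody (replicates A, B1 and B2) and 2 inputs without antibody (A and B). All 5 came from 1 cell line, and the labels do not say whether B1 and B2 were grown separately, so that the spread between replicates may be technical. Each antibody sample had its own peak list, called against input, and the inputs entered only through those lists. The 3 lists were merged into 21804 regions wherever peaks overlapped by at least 1 bp. A shared intragenic region was chosen by 3 conditions, a peak in all 3 replicates, no overlap with the 1 kb on either side of any GENCODE transcription start site (TSS), and a summit of replicate A inside a gene body. Of the 16069 regions with a peak in every replicate, 625 met these conditions, 691 were intergenic and 14753 touched a promoter window. The 625 regions held 661 peaks of A, 675 of B1 and 675 of B2, so peak presence and position selected the regions and their peak heights are given as a description.

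The shared intragenic regions were sorted into 2 kinds by a sequence cutoff defined below. Sequences are printed for 8 of them because later results turn on these letters. The first 4 lie in CpG islands by sequence, and 151 bp around the summit of replicate A are shown with every CG in capitals. KDM2B encodes a histone demethylase that binds unmethylated CpG, PAX3 a transcription factor of the melanocyte lineage, INSR the insulin receptor and BCOR a corepressor found in a Polycomb complex with KDM2B. All coordinates and sequences are from GRCh37 (hg19), plus strand, 5′ to 3′.
KDM2B, chr12:121905472-121905622: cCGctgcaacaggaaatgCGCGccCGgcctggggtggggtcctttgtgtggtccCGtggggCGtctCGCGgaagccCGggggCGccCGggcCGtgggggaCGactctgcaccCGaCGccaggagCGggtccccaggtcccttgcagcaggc
PAX3, chr2:223155932-223156082: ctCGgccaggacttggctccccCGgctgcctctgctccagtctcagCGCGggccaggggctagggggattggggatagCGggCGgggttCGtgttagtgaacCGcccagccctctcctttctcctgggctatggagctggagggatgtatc
INSR, chr19:7198327-7198477: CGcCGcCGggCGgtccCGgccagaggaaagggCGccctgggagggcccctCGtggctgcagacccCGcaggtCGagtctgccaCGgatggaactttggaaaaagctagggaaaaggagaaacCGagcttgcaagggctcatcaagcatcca
BCOR, chrX:40017409-40017559: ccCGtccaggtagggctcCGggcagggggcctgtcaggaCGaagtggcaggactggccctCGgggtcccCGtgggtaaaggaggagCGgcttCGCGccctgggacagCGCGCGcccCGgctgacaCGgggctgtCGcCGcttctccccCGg

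These 151 bp held 16 CG in KDM2B, 8 in PAX3, 11 in INSR and 16 in BCOR. The other 4 regions fall outside CpG-island-like sequence, which is defined below, and such regions are called poor in CpG. The name is relative, since the stretch of GNG7 still holds many CG. These 4 are shown from 30 bp beyond the summit of A to 30 bp beyond the nearest match to TGANTCA, where N is any base. This is the binding sequence of activator protein 1 (AP-1), dimers of JUN and FOS family proteins, and its 7 letters are in capitals. These 4 were picked among regions with such a match, which 160 of the 358 regions poor in CpG held. ENG encodes endoglin, a co-receptor of TGF-beta, ITGAD an integrin alpha subunit, GNG7 a G protein gamma subunit and TIMP2 an inhibitor of matrix metalloproteinases.
ENG, chr9:130600858-130601050: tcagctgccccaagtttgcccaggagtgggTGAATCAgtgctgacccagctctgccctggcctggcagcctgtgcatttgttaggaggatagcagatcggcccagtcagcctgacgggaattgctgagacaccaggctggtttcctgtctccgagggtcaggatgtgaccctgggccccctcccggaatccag
ITGAD, chr16:31415790-31415928: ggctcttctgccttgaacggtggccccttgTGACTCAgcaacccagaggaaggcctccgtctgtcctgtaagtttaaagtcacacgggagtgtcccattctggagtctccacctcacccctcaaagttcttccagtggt
GNG7, chr19:2525067-2525308: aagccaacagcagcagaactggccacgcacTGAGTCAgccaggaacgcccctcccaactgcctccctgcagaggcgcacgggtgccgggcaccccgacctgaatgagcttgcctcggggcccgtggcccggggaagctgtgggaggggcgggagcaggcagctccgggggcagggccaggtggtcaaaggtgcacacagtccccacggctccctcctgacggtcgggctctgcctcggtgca
TIMP2, chr17:76858433-76858547: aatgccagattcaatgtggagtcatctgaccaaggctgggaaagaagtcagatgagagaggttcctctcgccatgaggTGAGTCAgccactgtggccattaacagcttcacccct

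The match lay 129 bp from the summit in ENG, 75 bp in ITGAD, 178 bp in GNG7 and 51 bp in TIMP2. In GNG7 it fell outside the called region, chr19:2525133-2525556, and inside it in the other 3. Each of these regions was intronic in its named gene. In ITGAD the summit was also covered by an exon of an overlapping non-coding gene.

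Regions inside genes recurred less often between replicates than promoter regions did. Of 1879 merged regions away from promoters with a summit in a gene, 625 (33.3%, 95% Wilson interval 31.2 to 35.4) had a peak in all 3 replicates. The share was 42.2% for intergenic regions, 80.7% for promoter regions and 73.7% over all 21804 merged regions. Peaks seen in 1 replicate alone made up 521 (A), 228 (B1) and 132 (B2) of the intragenic regions. Because recurrence was part of the selection, nothing is read from this share about the regions retained.

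Peak height was lower in the shared intragenic regions than in shared promoter regions in every replicate. Fold enrichment, the height of the ChIP signal at the summit over the local background that the peak caller estimated, had medians of 9.89, 6.78 and 6.28 (here and below in the order A, B1, B2). The medians were 11.2, 7.49 and 6.94 in intergenic regions and 27.5, 15.5 and 14.8 in promoter regions. The replicate mean of the 3 medians was 7.65 ± 1.96 (SD, n = 3) inside genes and 19.2 ± 7.12 at promoters, and A stood above B1 and B2 in all of these classes. The number of fragments behind a summit, recovered from fold enrichment and p-value, had medians of 29, 23 and 22, against 79, 51 and 51 at promoters. These counts ran from 10 up to 160 (A), 255 (B1) and 107 (B2), so that single regions carry wide counting error.

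**Figure D1:**
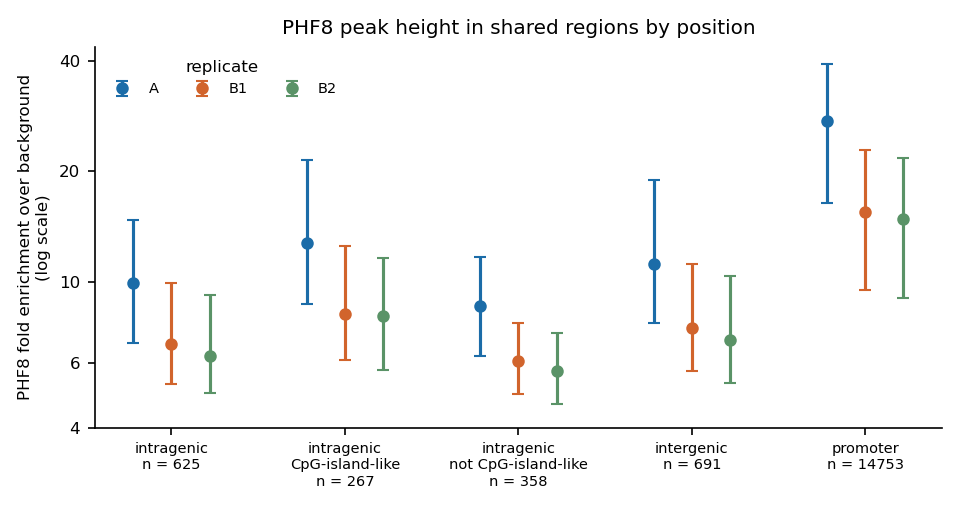
PHF8 fold enrichment (log axis) of regions with a peak in all 3 replicates, by position and, for intragenic regions, by sequence. Points are medians and bars span the 25th to the 75th percentile of the regions for replicates A, B1 and B2, and the 14753 promoter regions stand above the 625 intragenic ones in each replicate.

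The order of heights was less alike between replicates inside genes than at promoters. Spearman's rho of fold enrichment over the 625 regions was 0.731 between A and B1, 0.727 between A and B2 and 0.810 between B1 and B2, where the 14753 promoter regions gave 0.885, 0.886 and 0.946. In the 358 intragenic regions outside CpG-island-like sequence it was 0.571, 0.583 and 0.705. These values describe regions of the same libraries with a narrower range of heights, and no test was attached to them. The intragenic regions were also narrower, with a median width of 398 bp against 794 bp at promoters. The 3 summits fell within 100 bp of each other in 495 of the 625 regions (79.2%).

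Introns held most of the regions. The summit of A was in an intron in 519 regions (83.0%, 95% Wilson interval 79.9 to 85.8), in a coding exon in 45, in a non-coding exon of a protein-coding gene in 31 and in an exon of a non-coding gene in 30. The share of introns in gene-body sequence away from a TSS was not measured, so 83.0% has no reference here. The host was protein-coding for 463 regions and a long non-coding RNA gene for 153. The distance from the summit to the nearest TSS had a median of 4997 bp and ran from 1144 to 171165 bp, and 159 regions (25.4%) lay more than 10 kb away. The nearest was in the first intron of FOSL1, which encodes an AP-1 subunit, at 1144 bp. The farthest were in DPP10, a subunit of potassium channels, at 171165 bp, in the cell adhesion gene CADM2 at 119495 bp and in the orphan nuclear receptor gene ESRRG at 114147 bp. All 3 of these distant regions had CpG-island-like sequence, defined in the next paragraph.

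The 1 kb limit had regions of like height on both sides. Distance was measured here from the nearest edge of the region to a TSS, not from the summit. The 20 regions just outside the limit, 1018 to 1084 bp away, had median fold enrichments of 11.3, 6.21 and 6.11. The 20 shared promoter regions just inside it with a summit in a gene, 944 to 998 bp away, had 9.89, 5.99 and 5.50. CpG-island-like sequence was found in 12 of each 20. No test was made across the limit.

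A sequence cutoff divided the shared intragenic regions into 2 groups of unequal height. A window of 250 bp on either side of the summit was called CpG-island-like where G and C made up at least 50% of it and the ratio of observed to expected CpG was at least 0.6. This held for 267 of 625 intragenic regions (42.7%, 95% Wilson interval 38.9 to 46.6), against 49.8% of intergenic regions, 86.7% of promoter regions and 83.4% of all 16069 shared regions. The 267 regions had median fold enrichments of 12.7, 8.18 and 8.08. The 358 others had 8.60, 6.09 and 5.71, lower in each replicate, with quartile ranges that overlapped. These 358 are called poor in CpG. They include windows that narrowly missed a limit, such as that of a MAMSTR region with a CpG ratio of 0.591. Over the 625 regions the CpG ratio had quartiles of 0.340, 0.554 and 0.755, so the limit of 0.6 lay near the median. The median CpG ratio at the summit was 0.774 in the first group and 0.372 in the second.

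The share of CpG-island-like sequence followed the order of peak height. With the regions divided into 4 groups by their mean rank of fold enrichment over the 3 replicates, it was 70.7% in the tallest group (111 of 157, 95% Wilson interval 63.2 to 77.3). The following groups had 44.9%, 31.4% and 23.7%. By position the share was 48.0% at 1 to 2 kb from a TSS and 36.8% at 10 to 50 kb. In coding exons it was 75.6% (34 of 45, interval 61.3 to 85.8) and in introns 38.9% (202 of 519, interval 34.8 to 43.2). Coding exons are rich in CpG over much of the genome, and their share outside PHF8 regions was not measured.

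**Figure D2:**
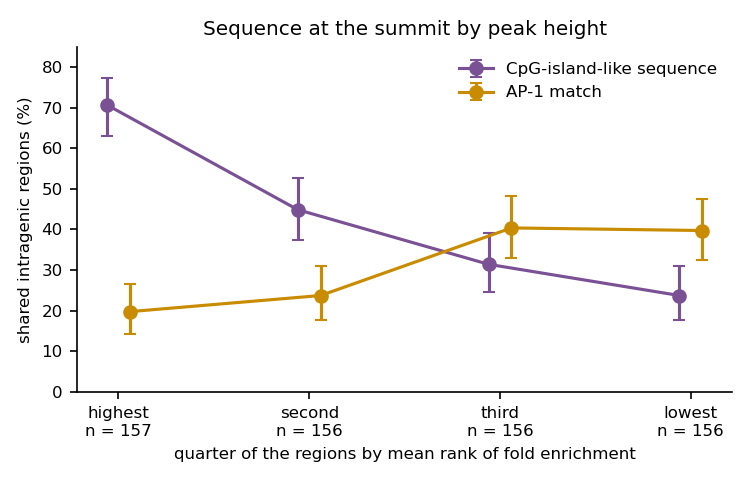
Share of shared intragenic regions (percent) with CpG-island-like sequence and with an AP-1 match within 250 bp of the summit, in 4 groups ordered by mean rank of fold enrichment. Points are shares and bars 95% Wilson intervals, and the CpG share falls from 70.7% to 23.7% as the AP-1 share goes from 19.7% to 39.7%.

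Base composition was slightly lower in GC and CpG inside genes than between genes, by amounts that the design could not test at 0.05. Measured at each replicate's own summits, the median GC content inside genes was 60.3%, 60.1% and 60.3%, and between genes it was 60.9%, 60.7% and 61.1%. The difference, intragenic minus intergenic, was -0.665 ± 0.115 percentage points (SD, n = 3, exact two-sided sign-flip permutation test p = 0.25, adjusted p = 0.25). The median CpG ratio was 0.554, 0.546 and 0.540 inside genes and 0.614, 0.611 and 0.610 between genes, a difference of -0.0648 ± 0.00463 (SD, n = 3, exact two-sided sign-flip permutation test p = 0.25, adjusted p = 0.25 over these 2 comparisons). Both differences had the same sign in 3 of 3 replicates. The smallest p that 3 replicates allow is 0.25, so neither could pass 0.05. The windows lay in the same 625 and 691 regions of the reference genome for each replicate, and only the summit moved. The median spread of the 3 summits was 52 bp inside genes and 46 bp between genes, in windows reaching 250 bp to either side. The SD and the shared sign therefore describe shifts of the summit over nearly the same sequence, not independent measurements of composition.

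AP-1 sequences were frequent in the intragenic regions poor in CpG. TGANTCA was found within 250 bp of the summit, on either strand, in 193 of 625 regions (30.9%, 95% Wilson interval 27.4 to 34.6), against 8.34% of all shared regions and 6.51% of promoter regions. It was present in 160 of the 358 regions outside CpG-island-like sequence (44.7%, interval 39.6 to 49.9) and in 33 of the 267 within it (12.4%, interval 8.94 to 16.8). Promoter regions outside CpG-island-like sequence had 18.5%. The same 358 regions gave 14.8% in windows 2 kb to the left of the summit, 11.2% in windows 2 kb to the right, and 10.6% for the letters read in the opposite order at the summit, comparisons that were chosen after the data had been seen. Intergenic regions poor in CpG had 44.1% (153 of 347, interval 39.0 to 49.4), so the frequency was shared by regions away from promoters inside and outside genes. The share at the summits of B1 and B2 was 43.9% and 43.6% of the same 358 regions.

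The AP-1 matches stood beside the summit rather than on it. In the 160 regions poor in CpG with a match, the nearest was a median of 164 bp from the summit of A, and 20 (12.5%) had one within 100 bp. This nearest match lay outside the merged region of called peaks in 91 of the 160 (56.9%). With the summits of B1 and B2 the median was 158 and 154.5 bp, with 24 of 157 and 34 of 156 regions inside 100 bp. Counted in bins of 50 bp, a match fell in 6.15% to 11.7% of the 358 regions in each of the 6 bins from 100 to 250 bp on the 2 sides. The 4 bins within 100 bp had 1.12% to 1.96%, and the 30 bins from 250 to 1000 bp had 0.279% to 3.63%. The mean per bin was thus 8.52% in the flanking zone, 1.4% at the summit and 1.89% farther out. Intergenic regions poor in CpG had the same 2 flanking maxima, with means of 7.64%, 1.95% and 1.94%. Promoter regions had 0.916%, 0.403% and 1.02%, so their mean at 100 to 250 bp was below that farther out. For the letters in the opposite order, 12 of 38 regions (31.6%) had the nearest match within 100 bp. A low share within 100 bp was not particular to AP-1 or to these regions. Among regions poor in CpG with a match, it was 18.9% for the M-box and 25.8% for ETS sites, both described below. It was 33.3% for the E-box and 39.6% for SP sites, all above the 12.5% of AP-1. At promoters it was 24.8% for AP-1, 20.2% for ETS, 26.1% for the E-box, 25.9% for the M-box and 57.3% for SP.

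**Figure D3:**
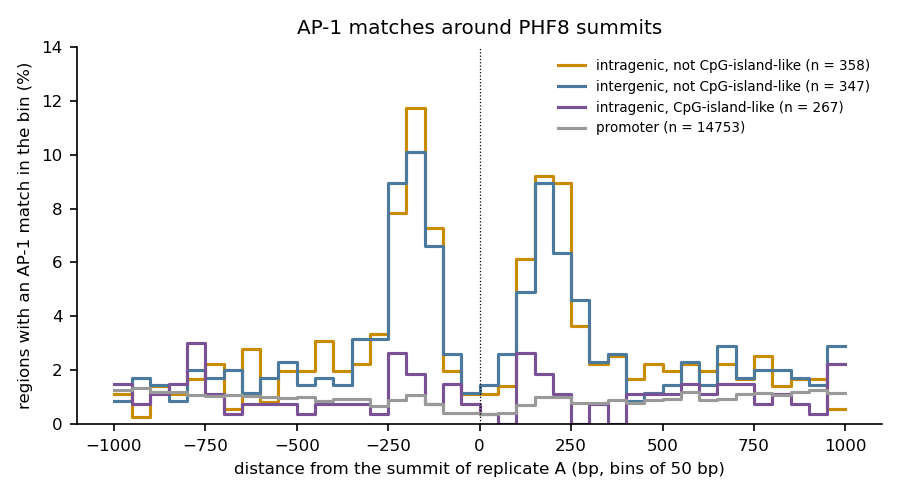
Share of regions (percent) with an AP-1 match in each bin of 50 bp, against distance from the summit of replicate A in bp, for intragenic and intergenic regions poor in CpG, CpG-island-like intragenic regions and promoter regions. The 2 classes poor in CpG have maxima between 100 and 250 bp on both sides, up to 11.7% in the intragenic one, and fall below 3% at the summit.

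The frequency of AP-1 matches varied with height and with distance from a TSS. Over all 625 regions the share was 19.7%, 23.7%, 40.4% and 39.7% from the tallest to the lowest of the 4 groups by height. Among the regions poor in CpG alone the corresponding shares were 41.3%, 33.7%, 50.5% and 48.7%, with overlapping intervals for the tallest and the lowest group (28.3 to 55.7 and 39.9 to 57.6). By distance from a TSS it was 17.9% at 1 to 2 kb (22 of 123), 28.4% at 2 to 5 kb (54 of 190), 32.7% at 5 to 10 kb (50 of 153) and 42.8% at 10 to 50 kb (65 of 152). The intervals of the first and last of these shares, 12.1 to 25.6 and 35.2 to 50.7, did not overlap. Among the regions poor in CpG it was 26.6% at 1 to 2 kb (17 of 64, interval 17.3 to 38.5), 46% at 2 to 5 kb, 44.2% at 5 to 10 kb and 55.2% at 10 to 50 kb (53 of 96, interval 45.3 to 64.8), so the largest step was between the first 2 distances. The regions are neighbours on 1 genome and members of 1 set of libraries, so these intervals cover counting error only.

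Other motifs also differed in frequency between the 2 groups, in either direction. The M-box, TCATGTG, which MITF, the master regulator of melanocytes, can bind, was present in 37 of the 358 regions poor in CpG (10.3%, 95% Wilson interval 7.59 to 13.9) and in 2.62% of the CpG-island-like ones, against 2.34% of all shared regions. Its share was 6.42% and 5.59% in the windows 2 kb to either side, with intervals that overlapped that of the summit. It was 8.93% in intergenic regions poor in CpG (31 of 347, interval 6.37 to 12.4) and 4.64% in promoter regions poor in CpG. The E-box, CACGTG, read by MITF and MYC family proteins, was found in 14.2% of the regions poor in CpG (interval 11.0 to 18.2) and 15.0% of the CpG-island-like ones, against 5.03% and 3.91% in the windows 2 kb to either side of the former and 8.94% for its letters in the opposite order. GCCNNNGGC, read by TFAP2 proteins, was in 31.0% of the regions poor in CpG (interval 26.4 to 36.0), against 15.1% and 15.4% in the neighbouring windows and 9.78% in the opposite order, and in 57.3% of the CpG-island-like ones. These 2 motifs thus stood above their neighbouring windows, as AP-1 did. GGAATG, bound by TEAD proteins of the Hippo pathway, was in 27.4% of the regions poor in CpG, against 22.6% and 26.3% in the neighbouring windows. In intergenic regions poor in CpG the E-box had 12.7%, GCCNNNGGC 32.3% and GGAATG 28.8%, so each was about as frequent outside genes. CCGGAAG, a site of ETS proteins, was in 17.6% of the CpG-island-like regions, 8.66% of those poor in CpG and 20.4% of promoter regions. In the regions poor in CpG its neighbouring windows had 2.51% and 1.68%, and its letters in the opposite order 6.70%. GGGCGG, the GC box of SP proteins, was in 79.8% of the CpG-island-like regions and 44.4% of those poor in CpG, and its letters in the opposite order were in 81.3% and 45.3%. The windows 2 kb to either side of the latter had 19.8% and 15.4%, so GGGCGG and CCGGAAG also stood above their neighbouring windows. GCGCATGC, bound by NRF1, was in 5.99% and 1.12%. The sequence of the insulator protein CTCF, searched for by name, was in 7 of the 625 regions (1.12%). A match describes letters in a window and was not shown to be a bound site.

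The tallest intragenic peaks lay in genes of varied function, and in several unnamed non-coding genes. The highest mean rank belonged to a region in ENSG00000290199 on chromosome 22, with fold enrichments of 52.1, 31.2 and 29.5. ENSG00000259052 on chromosome 14 followed with 53.4, 25.9 and 23.9, and ENSG00000236924 on chromosome 9 with 43.6, 29.7 and 25.3. All 3 are non-coding genes, and none had a peak at its own promoter in every replicate. The region in LDB3, a scaffold protein of muscle Z-discs, had 44.1, 26.6 and 22. ZFPM1, a cofactor of GATA factors, had 44.4, 23.2 and 25.3 over a coding exon, with a CpG ratio of 1.06. CROCC, which encodes the ciliary rootlet protein, had 42.5, 24.2 and 22.7, though it has near-identical copies elsewhere in the genome and reads may be placed wrongly among them. KDM2B, whose sequence is printed above, had 33.9, 24.2 and 29.0. Of the 12 regions with the best mean rank, 11 were CpG-island-like and the exception was TNRC18, with 42.1, 25.2 and 20.4 and a CpG ratio of 0.388.

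Among coding exons, the synaptic vesicle gene SYP had 40.8, 25.2 and 17.7, the forkhead factor gene FOXO6 had 40.5, 23.4 and 20.3, and SYNPO, which encodes an actin-associated protein, had 44.9, 21.1 and 17.7. More than 10 kb from any TSS, INSR gave nearly equal heights of 25.3, 24.8 and 27.4 at 30413 bp. DAGLA, the lipase that makes the endocannabinoid 2-AG, had 37.8, 20.9 and 21.0 at 29819 bp, in sequence poor in CpG. Nearer to a TSS and also poor in CpG, MAMSTR, a coactivator of MEF2 factors, had 42.5, 19.3 and 16.0 at 2891 bp. ITGAD, with an AP-1 match, had 38.6, 17.7 and 16.8 at 2012 bp. In these regions A was at or above both B replicates, except in INSR, where B2 was highest.

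**Figure D4:**
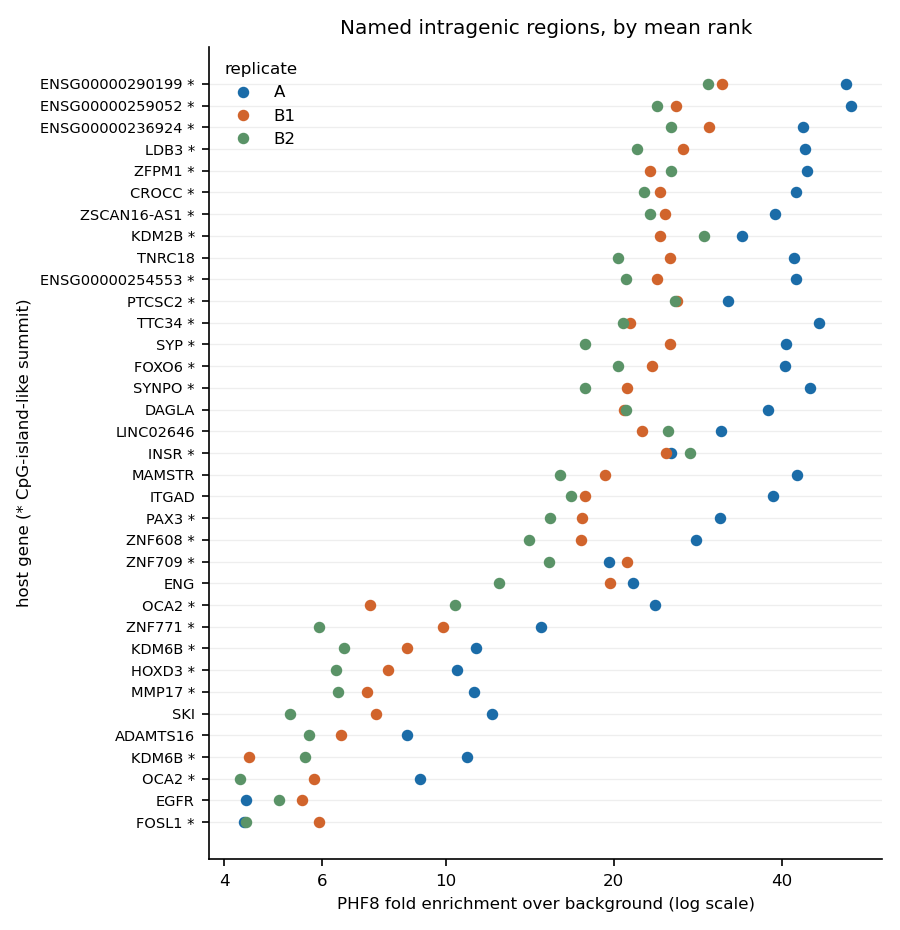
PHF8 fold enrichment (log axis) in replicates A, B1 and B2 for the named intragenic regions, 1 row each, ordered by mean rank. An asterisk marks CpG-island-like sequence, which is common at the top, where ENSG00000290199 has 52.1 in A, and the lowest rows are EGFR and FOSL1.

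Gene lists tied to melanoma held 0 to 2 genes each with a shared intragenic region. Of 20149 protein-coding genes, 413 (2.05%) had at least 1 shared intragenic summit in their body, every overlapping gene counted, and this share is the reference for each list. TGF-beta signalling had 2 of 40 genes (5%), ENG (21.7, 19.7 and 12.4 in A, B1 and B2) and SKI, a repressor of SMAD proteins (12.1, 7.50 and 5.26). The melanocyte lineage had 2 of 24 (8.33%), PAX3 with 31.0, 17.5 and 15.3 and OCA2, a melanosomal transporter, with 23.7, 7.32 and 10.4 in the taller of its 2 regions. The invasive melanoma state had 2 of 29 (6.90%), EGFR at 4.38, 5.51 and 5.02 and FOSL1 at 4.35, 5.91 and 4.37, both near the lower end. The RAS and MAP kinase list had none of 30 genes. A promoter peak in every replicate was present in 38 of 40 TGF-beta genes (95%), 28 of 29 of the invasive state (96.6%), 30 of 30 of the RAS and MAP kinase list and 11 of 24 melanocyte genes (45.8%), against 60.2% of all protein-coding genes. No list was tested against the reference, and each count is small.

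Enzymes of histone lysine methylation had regions in 2 of 52 genes. Beside KDM2B, the demethylase gene KDM6B held 2, the taller with 11.3, 8.53 and 6.57, both CpG-island-like with an AP-1 match. Matrix proteases, integrins and collagens had 4 of 142, ITGAD, TIMP2, MMP17 (11.2, 7.21 and 6.39) and ADAMTS16 (8.51, 6.48 and 5.69). Homeobox genes had 7 of 122, among them PAX3 and HOXD3 (10.5, 7.88 and 6.34). Zinc finger genes had 9 of 556, led by ZNF608 (28.1, 17.5 and 14.1), and clustered protocadherins none of 53.

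A few genes held several regions. BCOR had 6, of which 5 were CpG-island-like, and the tallest gave 16.8, 15.7 and 11.5. ABR, AHNAK2, CXXC5, ENSG00000282278, ERCC1, GNG7, MYO9B and TIMP2 had 3 each, and 64 further genes had 2. CXXC5 encodes a CpG-binding zinc finger protein, and its 3 first-intron regions had 10.7, 11.1 and 13.8 in A. The 3 regions of TIMP2 were all outside CpG-island-like sequence and had replicate A values of 12, 6.32 and 10.4, B1 values of 5.33, 4.36 and 4.89, and B2 values of 4.96, 3.73 and 4.53. ERCC1, a subunit of a repair endonuclease, had an AP-1 match in all 3 of its regions. Another shared intragenic region lay within 5 kb of 116 of the 625, so neighbours are not independent of each other.

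Host genes were long, and most had a peak at their own promoter. The 393 protein-coding hosts had a median length of 65531 bp, against 27195 bp for all protein-coding genes. A longer gene covers more sequence, and the host length expected from placement alone was not measured. A promoter peak in all replicates was present in the host of 332 of 463 regions (71.7%, 95% Wilson interval 67.4 to 75.6), against 60.2% of all protein-coding genes. Counted by gene it was 276 of 393 hosts (70.2%), and among protein-coding genes at least as long as the median host that held no region it was 70.6% (3683 of 5218). Hosts of every length entered the first share, so the 2 groups differ in length, and the difference was not tested. The share was 75% for regions poor in CpG and 67.5% for CpG-island-like ones, with overlapping intervals. The median distance to the nearest shared promoter region was 24200 bp.

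One gene departed from all others in replicate B1. NFE2L2, which encodes the oxidative stress regulator NRF2, held 2 regions over its exons 5 and 4, and it was singled out after its values were seen. The region over exon 5 had fold enrichments of 10.6, 66.2 and 5.91, from 45, 255 and 22 fragments. The region over exon 4 had 7.13, 49.8 and 6.37, from 30, 165 and 21 fragments. The log2 ratio of B1 to A was 2.81 and 2.65 in these regions, and the next highest of the 625 was 1.28, in GNG7. Peaks in B1 also covered exon 3 (13.4) and exon 2 (29.9), and A had one on exon 2 (9.72), while at exon 1, which is next to a promoter, B1 was lowest, with 14.1 against 33.2 in A and 20.7 in B2. By genome coordinate, the B1 peaks over exons 2, 3 and 4 began 103 to 107 bp before the exon and ended 104 to 109 bp after it, while the peak over exon 5 began 376 bp inside that exon and ended 102 bp after it. The B1 peaks over exons 2 to 5 were separate, 1 for each exon. The A peaks over exons 2 and 4 began 34 and 47 bp before the exon and ended 38 and 52 bp after it. The B2 peak over exon 4 began 16 bp before that exon and ended 12 bp inside it. Over exon 5 the peak ended 2 bp after the exon in A and 30 bp inside it in B2. Whether values over exons 2 to 5 measure PHF8 at the genomic locus or DNA of another origin was not tested in any replicate. The values there, 66.2 and 49.8 among them, therefore cannot be read as PHF8 enrichment alone. Without these 2 regions the replicate mean of the median fold enrichments was 7.65, as with them.

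**Figure D5:**
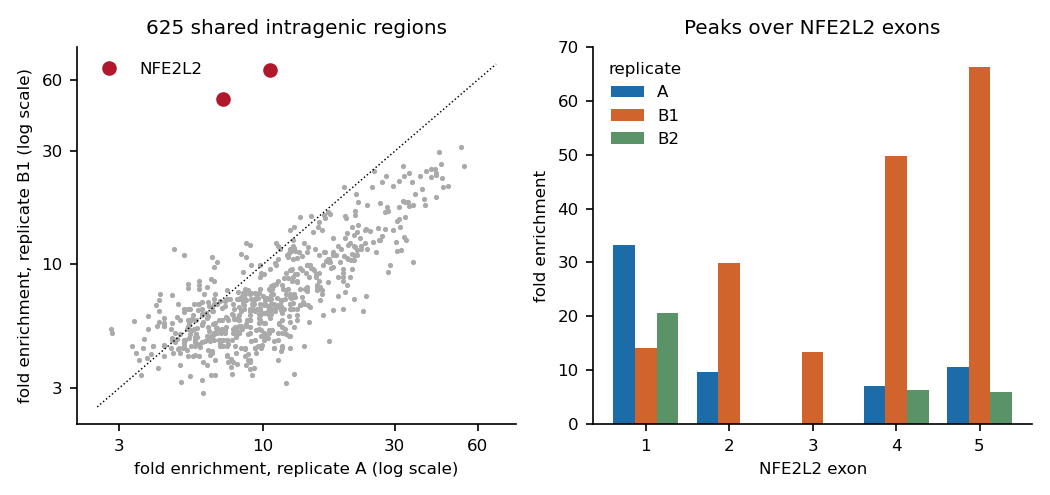
Left, fold enrichment in replicate B1 against replicate A (both log axes) for the 625 shared intragenic regions, with the 2 of NFE2L2 in red, and a dotted line of equal values. Right, fold enrichment of the peak over each NFE2L2 exon in A, B1 and B2 (no bar where no peak was called), where B1 reaches 66.2 over exon 5.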

How the data were processed

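SKMEL-147 chromatin was analysed in 3 PHF8 ChIP-seq replicates (A, B1, B2), and 2 inputs entered through the authors' peak calls alone. Reads were aligned by the authors with Bowtie2 (hg19), and narrow peaks were called by MACS for each replicate on its own. The submitters' notes also name bcl2fastq and Picard. Versions and read totals are not given in the sources used here, so library depth is unknown. The deposited lists give each peak's position and summit, a score that was not used, the fold enrichment as a ratio, and −log10 p-values and q-values. Fragments at a summit were recovered from the deposited fold enrichment and p-value, whole within 0.001 on the −log10 scale for 100% of the regions.

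Regions were merged at 1 bp of overlap and classed with GENCODE release 44 lifted to GRCh37. The strongest peak of a replicate gave its fold enrichment and the widest its summit. GC content, CpG ratio and 14 motifs were read from GRCh37 within 250 bp of summits on both strands, with Python 3.11.15, pandas 2.3.3, pysam 0.24.0 and scipy 1.17.1. Shares carry 95% Wilson intervals (statsmodels 0.14.6), which cover counting error only. Differences in composition were tested by exact sign flips over 3 replicates, whose windows lay in the same regions. Scripts were tested on simulated data. The named regions were the 12 with the best mean rank of fold enrichment, the 5 best in coding exons, beyond 10 kb and outside CpG-island-like sequence, up to 3 per gene list, genes with 3 or more regions, and the 3 nearest to and farthest from a TSS; some are summarised only by count and 1 is not reported here. The regions, the 9 gene lists and the motifs were chosen with earlier results of these data known. Alternatives tried were other TSS windows, overlaps, peak cutoffs, summits and gene sets, and leaving out each replicate.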

Additional observations from a re-analysis of the deposited data

How the results depend on the processing

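The number of shared intragenic regions stayed within 1.5 times 625 under every alternative, from 463 with protein-coding gene bodies only to 857 with a TSS window of 500 bp, and from 720 to 862 when a replicate was left out. The share with CpG-island-like sequence was 46.8% with the 500 bp window, 33.9% when GC of at least 0.55 and a CpG ratio of at least 0.65 were asked for, and 36.9% to 40.4% when a replicate was left out, lowest without B2. The share more than 10 kb from a TSS was 18.6% with the 500 bp window and 33.9% with 2 kb, since the same 159 regions were divided by other totals. In recovered fragments the replicate mean of the medians was 24.7, in other units than fold enrichment. AP-1 matches within 100 bp of the summit were present in 4.32% of the 625 regions. For the regions poor in CpG, the AP-1 share within 250 bp ran from 41.4% to 48.4% over the alternatives, which were chosen for this result after seeing the data. The differences in GC content and CpG ratio kept their sign under each alternative, and GC content within 100 bp differed by -0.166 percentage points. Of 96 alternative values, 76 stayed within 1.5 times the reported count, within the interval or spread of the reported value, or kept its sign. Another 20 moved beyond these limits and 0 changed sign. The 20 include the share of every motif recounted within 100 bp of the summit, which a narrower window can only lower, and the fragments in other units. The composition tests already compared the 2 classes within each replicate. Weak peaks of 10 fragments limit the heights, and library depth is unknown.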
